A study of Mus musculus with 12 samples.

Results

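The vascular endothelial growth factor (VEGF) ligands, their receptor tyrosine kinases and the neuropilin co-receptors were followed in left ventricles of mice. The 9 genes were listed by name and matched by symbol: the ligands Vegfa, Vegfb, Vegfc and Pgf, the receptors Flt1, Kdr and Flt4, and the co-receptors Nrp1 and Nrp2. All 9 were among the 38293 genes of the deposited tables, and 9 of 9 were among the 14770 genes that passed the filter on low counts. The hearts came from healthy C57BL/6J mice, whose age and sex the labels do not give, and no other allele or treatment is named. Each heart received 2 intramyocardial injections of 10 µl with the thorax opened, so every group, PBS included, had the same surgery and needle passages. One group of 4 libraries received the Upy-PEG hydrogel with antimiR-195, an inhibitor of the microRNA miR-195. A second group of 4 received Upy-PEG alone, and the third group of 4 received PBS. The left ventricle was taken after 3 days, and polyadenylated RNA of the whole ventricle was sequenced. The labels do not say that the 4 libraries of a group came from separate animals, so p-values measure the spread between these libraries, which may be partly technical.

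VEGF ligands are secreted dimers that bind receptor tyrosine kinases on endothelial cells. Kdr (VEGFR2) carries most of the mitogenic signal of Vegfa, Flt1 (VEGFR1) binds Vegfa, Vegfb and Pgf tightly and limits what reaches Kdr, partly as a soluble form, and Flt4 (VEGFR3) serves Vegfc in lymphatic and sprouting endothelium. The neuropilins bind both VEGF ligands and class 3 semaphorins and act beside the kinases. In the heart the cardiomyocytes are a main source of Vegfa and Vegfb, and the receptors sit mostly on the dense capillary bed between them.

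Vegfa is a reported target of miR-195, a member of the miR-15/16 family, which is why the annotated 3' untranslated regions of the 9 genes were searched for its seed. The mature miRNA (RefSeq, GRCm38.p6, chr11:70235062-70235082, plus strand) is printed first with its seed, bases 2 to 8, in capitals. The 4 seed matches of at least 7 bases in the members follow as DNA on the gene's strand, with the match in capitals. A 7mer-m8 match reads TGCTGCT, an 8mer match reads TGCTGCTA, and a 6mer match holds only GCTGCT.
miR-195a-5p: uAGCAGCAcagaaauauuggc
Vegfa 8mer: ccattttcttatatcTGCTGCTAaat
Kdr 7mer-m8: aaatcacgagagaggTGCTGCTtaga
Flt1 7mer-m8: ttttgtggctttataTGCTGCTtgtg
Nrp2 7mer-m8: tctgaccgtttttttTGCTGCTgtga

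The Vegfa match lies at chr17:46018590-46018597 on the minus strand (GRCm38), in the 3' untranslated region of 3 of 4 annotated transcripts, and starts at base 261 of the longest region of 1865 bases. The Kdr match lies at chr5:75934361-75934367, minus strand, near the start of its only annotated region, at base 56 of 1596. The Flt1 match lies at chr5:147636535-147636541, minus strand, in 1 of 2 transcripts with such a region, the one with the longer region of 3971 bases. The other Flt1 transcript has a region of 2616 bases that holds 2 matches of 6 bases and none longer. Gene-level counts cannot tell these Flt1 transcripts apart. The Nrp2 match lies at chr1:62817400-62817406, plus strand, in 4 of 6 transcripts, but not in the one with the longest region.
Taking the longest region of each gene, 3 of 9 members (Vegfa, Kdr and Flt1) held an 8mer or 7mer-m8 match, against 27.2% of the 13331 tested genes with an annotated region. Vegfb had 2 matches of 6 bases, Flt4 and Nrp2 had 1 each, and Vegfc, Pgf and Nrp1 had none. Searching for any 6-base match found 6 of 9 members, against 49.5% of those genes. The same seed is shared by at least 10 mature mouse miRNAs in the RefSeq table, among them miR-15a-5p, miR-15b-5p, miR-16-5p and miR-497a-5p. Each name was counted once, and not every chromosome was included. A match describes letters in the annotation and does not show binding.
The genes the results turn on are protein-coding and lie apart on GRCm38: Vegfa (ENSMUSG00000023951) at chr17:46016993-46032369 and Flt1 (ENSMUSG00000029648) at chr5:147561604-147726011. Vegfb (ENSMUSG00000024962) lies at chr19:6982473-6987651, and Nrp1 (ENSMUSG00000025810) at chr8:128358604-128503363. Kdr (ENSMUSG00000062960) lies on the same chromosome as Flt1, at chr5:75932827-75978458.

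Library depth was 22353241 to 30278621 reads counted on genes. Read counts scaled to library size are given as TMM-scaled CPM. For the labelled tissue, the 10 cardiomyocyte markers were detected in every library and summed to 81296 to 95736 CPM in antimiR-195, 59161 to 82443 CPM in Upy-PEG and 83876 to 98963 CPM in PBS. AntimiR-195 replicates 2 and 3 stood apart on the first principal component, which held 35.1% of the variance, at -60.2 and -40.7 against -8.48 to 33.4 for the other 10 libraries. In both, long genes had relatively low counts: the slope of log2 CPM on log2 gene length was -0.229 and -0.135, against -0.0415 to 0.122 in the others. On the second component, with 22.2% of the variance, Upy-PEG replicates 1 and 2 stood apart at -47.5 and -24.7, against -10.9 to 28.5 for the others. Where values of the members moved most with either pair of libraries, they are also given without that pair; leaving out the Upy-PEG pair was chosen after seeing the data.

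Levels of different genes were compared per length, as deposited RPKM, reads on a gene scaled to its length and to the reads of the library. Among the ligands Vegfb, which binds Flt1 and is tied to coronary growth and cardiac lipid handling, stood highest at 194 ± 6.76 RPKM in antimiR-195, 187 ± 26.1 RPKM in Upy-PEG and 216 ± 10.4 RPKM in PBS libraries (SD, n = 4 each). Vegfa, the main angiogenic ligand, averaged 71.5 ± 17.9 RPKM in antimiR-195, 73.5 ± 7.63 RPKM in Upy-PEG and 77.5 ± 3.48 RPKM in PBS. Vegfb made up 70.9 ± 3.18% and Vegfa 26.4 ± 3.26% of the summed RPKM of the 4 ligands (SD, n = 12 libraries).
Pgf (placental growth factor, a Flt1 ligand) and Vegfc were far lower. Pgf averaged 4.07 ± 0.564 RPKM in antimiR-195, 4.28 ± 0.159 RPKM in Upy-PEG and 3.46 ± 0.578 RPKM in PBS. Vegfc averaged 3.18 ± 0.759 RPKM in antimiR-195, 3.50 ± 0.491 RPKM in Upy-PEG and 3.34 ± 0.895 RPKM in PBS. Together Pgf and Vegfc were a small remainder, at 1.42% and 1.20% of the ligand RPKM. They had few reads, with 114 to 201 counts per library for Pgf and 90 to 217 for Vegfc.

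Kdr led the receptors at 21.1 ± 6.04 RPKM in antimiR-195, 23.1 ± 4.26 RPKM in Upy-PEG and 22.3 ± 3.09 RPKM in PBS. Flt1 followed at 10.4 ± 1.94 RPKM in antimiR-195, 11.3 ± 0.610 RPKM in Upy-PEG and 13.7 ± 1.82 RPKM in PBS. Flt4 averaged 2.17 ± 0.632 RPKM in antimiR-195, 2.97 ± 0.709 RPKM in Upy-PEG and 2.86 ± 0.427 RPKM in PBS. Of the summed RPKM of the 3 receptors, Kdr held 60.4 ± 4.05%, Flt1 32.4 ± 3.66% and Flt4 7.24 ± 1.08% (SD, n = 12).
Nrp1, the co-receptor that binds Vegfa and Sema3a, averaged 40.4 ± 1.42 RPKM in antimiR-195, 39.2 ± 1.89 RPKM in Upy-PEG and 39.6 ± 6.64 RPKM in PBS. Nrp2, which pairs with Flt4 and binds Vegfc and Sema3f, averaged 3.99 ± 1.65 RPKM in antimiR-195, 4.94 ± 1.49 RPKM in Upy-PEG and 4.36 ± 0.612 RPKM in PBS. Nrp1 held 90.0 ± 2.50% of the neuropilin RPKM.

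In 12 of 12 libraries the levels ran, from high to low, in the order Vegfb, Vegfa, Nrp1, Kdr, Flt1 and Nrp2, so these neighbours were separated in every library. Below that the order was not fixed: Nrp2 was above Pgf in 6 of 12 libraries, Pgf above Vegfc in 9 of 12 and Vegfc above Flt4 in 9 of 12. Across the 12 libraries Nrp1 and Vegfb varied least, with coefficients of variation of RPKM of 9.36% and 10.02%, and Nrp2 (28.7%) and Flt4 (24.6%) varied most.

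**Figure D1:**
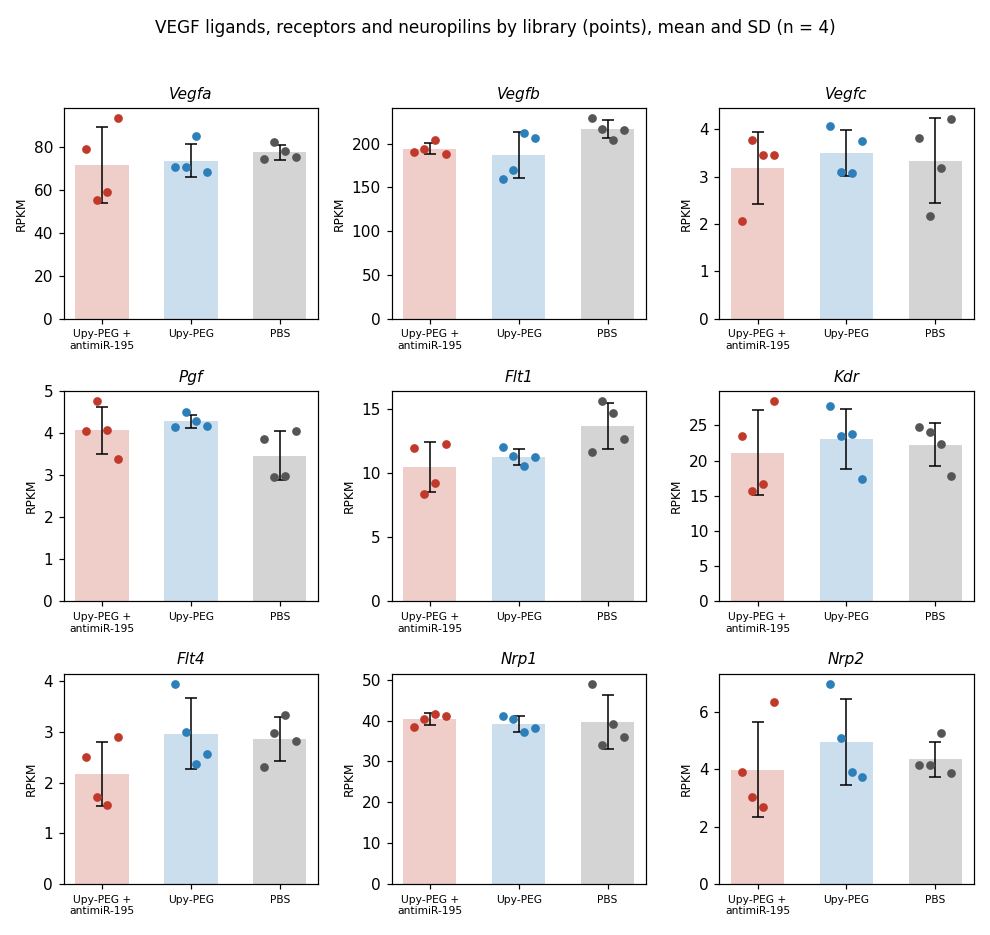
Deposited RPKM of the 9 genes, 1 panel each, in the 4 libraries of the antimiR-195, Upy-PEG and PBS groups; points are libraries, bars the group mean and error bars the SD. Flt1 in Upy-PEG sits between 10.5 and 12.01 RPKM, overlapping PBS at 11.6 to 15.6 RPKM. Pgf in Upy-PEG, at 4.15 to 4.50 RPKM, lies above PBS, at 2.95 to 4.06 RPKM. Most other genes show 3 groups that overlap widely.

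The delivery of antimiR-195 was addressed by comparing antimiR-195 libraries with Upy-PEG alone. None of the 9 genes passed in edgeR's quasi-likelihood test at a Benjamini-Hochberg adjusted p of 0.05 over all genes, and neither did any of the 14770 genes (0%). At an unadjusted p under 0.05 no member was found (0 to 2 members in the other fits), against 13.1% of all genes, and DESeq2 called no member beside 0.118% of all genes, nor did limma voom with sample weights, beside 0%. Of the 9 log2 fold changes 7 were above 0, with a median of 0.04, beside a median of -0.01 over all genes, but 5 of these 7 (Vegfa, Vegfc, Pgf, Flt1 and Kdr) were below 0 when libraries were scaled by total counts alone, without TMM. Without Upy-PEG replicates 1 and 2, Vegfa, Vegfb and Vegfc were below 0 and Nrp2 was above.
Vegfa, the reported target, measured 363, 246, 275 and 396 CPM in antimiR-195 libraries (replicates 1 to 4), against 266, 282, 362 and 286 CPM in Upy-PEG. AntimiR-195 replicates 2 and 3 were low and replicates 1 and 4 high, and the groups overlapped. The log2 fold change was 0.10 ± 0.153 (SE, 95% interval -0.23 to 0.43; edgeR quasi-likelihood, adjusted p = 0.760). Without antimiR-195 replicates 2 and 3 it was 0.35 (unadjusted p = 0.0226, adjusted p = 0.473, edgeR). With the gene length slope as a covariate it was 0.22 (unadjusted p = 0.108, adjusted p = 0.633, edgeR). Neither value passed.
Kdr, which also carries a seed match, measured 184, 118, 133 and 205 CPM in antimiR-195 and 177, 160.1, 172 and 124 CPM in Upy-PEG. Replicates 2 and 3 of antimiR-195 were again low, and the groups overlapped. For Kdr the log2 fold change was 0.02 ± 0.179 (95% interval -0.37 to 0.40; edgeR adjusted p = 0.967), and 0.30 without replicates 2 and 3. For Flt1, the third gene with a match in its longest region, the log2 fold change was 0.04 ± 0.136 (95% interval -0.25 to 0.33; edgeR adjusted p = 0.896). Without replicates 2 and 3 of antimiR-195 Flt1 was at 0.23 (adjusted p = 0.625), and with the length slope as a covariate at 0.19 (unadjusted p = 0.0453, adjusted p = 0.568, edgeR).

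Nrp1 was the 1 member whose groups did not overlap, against 4.4% of all genes in this comparison and 1.94% higher in antimiR-195. It measured 244, 248, 269 and 240.5 CPM in antimiR-195 libraries and 213, 223, 218 and 220.4 CPM in Upy-PEG. Every antimiR-195 library lay above every Upy-PEG library. PBS libraries spanned the whole range, from 212 to 286 CPM, but only through replicate 1 at 286 CPM. The other PBS values were 212, 233 and 214 CPM. The log2 fold change was 0.20 ± 0.106 (95% interval -0.03 to 0.42; unadjusted p = 0.0859 and adjusted p = 0.407, edgeR quasi-likelihood). On total counts alone it was 0.04, and on the deposited RPKM the groups overlapped. The fit without PBS replicate 1 gave 0.20 (unadjusted p = 0.0426, adjusted p = 0.362, edgeR). Nrp1 shares 80 exon bases with Mir1903 on the same strand, which had 0 counts.
Among the other ligands, Vegfb measured 329, 324, 357 and 299.8 CPM in antimiR-195 and 224, 255, 338 and 324 CPM in Upy-PEG. Upy-PEG replicates 1 and 2 were low and the other 2 lay within the antimiR-195 range. The log2 fold change of Vegfb was 0.20 ± 0.129 (95% interval -0.08 to 0.48; edgeR adjusted p = 0.468). It was 0.06 on total counts alone, 0.28 without Upy-PEG replicate 3, 0.097 without Upy-PEG replicate 1 and -0.02 without Upy-PEG replicates 1 and 2. The log2 fold changes of Pgf and Vegfc were 0.08 ± 0.152 and 0.01 ± 0.208 (edgeR adjusted p = 0.814 and 0.980).
Flt4 measured 22.1, 14.7, 14.1 and 23.6 CPM in antimiR-195, against 28.6, 23.03, 19.3 and 20.6 CPM in Upy-PEG. Again antimiR-195 replicates 2 and 3 were the low ones. The Flt4 log2 fold change of -0.30 ± 0.187 (95% interval -0.70 to 0.11; edgeR adjusted p = 0.459) became -0.0002 without them and -0.03 with the length slope as a covariate, and it was -0.45 on total counts alone (unadjusted p = 0.0480, edgeR) and -0.43 without antimiR-195 replicate 4 (unadjusted p = 0.0402, edgeR). Nrp2 measured 40.0, 29.9, 27.8 and 59.6 CPM in antimiR-195 and 58.2, 45.3, 37.0 and 34.8 CPM in Upy-PEG. For Nrp2 the log2 fold change was -0.16 ± 0.225 (edgeR adjusted p = 0.743), and 0.19 without replicates 2 and 3.

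**Figure D2:**
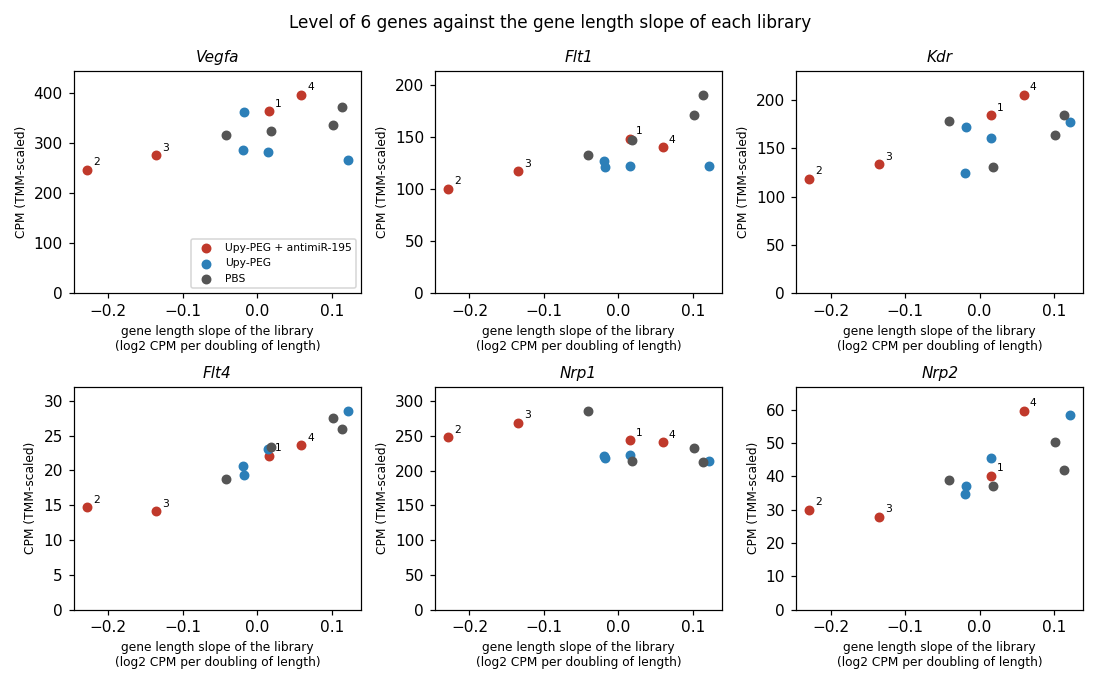
TMM-scaled CPM of Vegfa, the 3 receptors and both neuropilins (vertical axis) in each of the 12 libraries against that library's slope of log2 CPM on log2 gene length (horizontal axis); colours mark the 3 groups, and numbers the antimiR-195 replicates. AntimiR-195 replicates 2 and 3, at slopes of -0.229 and -0.135, hold the lowest Flt4 and Nrp2 values of all libraries.

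The injected hydrogel was addressed by comparing Upy-PEG with PBS. None of the 9 members passed in edgeR's quasi-likelihood test after adjustment, beside 0% of all genes. At an unadjusted p under 0.05, 2 of 9 members, Flt1 and Vegfb, were both lower, against 13.2% of all genes in either direction and 3.83% lower. Neither was under it on total counts alone, without PBS replicate 2, or without Upy-PEG replicates 1 and 2. DESeq2 called no member beside 3.53% of genes, and limma voom with sample weights called 1 member, Flt1, beside 6.22%, or 1.47% called lower. Of the 9 log2 fold changes 7 were below 0, with a median of -0.06, beside -0.03 over all genes, but 3 of these 7 (Vegfc, Kdr and Flt4) were above 0 on total counts alone, and without Upy-PEG replicates 1 and 2 Vegfc was above 0 and Nrp2 below.
Flt1 measured 122, 123, 121 and 127 CPM in Upy-PEG libraries and 133, 191, 171 and 147 CPM in PBS libraries. The 4 Upy-PEG values lay close together and below every PBS value, whereas PBS libraries were spread. On the deposited RPKM, which uses total counts, the groups overlapped, at 10.5 to 12.01 RPKM in Upy-PEG and 11.6 to 15.6 RPKM in PBS. Groups did not overlap for 1 of 9 members, Flt1, against 9.68% of all genes, and against 3.77% with Upy-PEG below. The log2 fold change was -0.38 ± 0.136 (95% interval -0.68 to -0.09; unadjusted p = 0.0141, adjusted p = 0.227, edgeR quasi-likelihood), which ranked 917 of 14770 genes by p. On total counts alone it was -0.28 (unadjusted p = 0.0605, edgeR), and without Upy-PEG replicates 1 and 2 it was -0.37 (unadjusted p = 0.0703, edgeR). In limma voom with sample weights it was -0.41 with an adjusted p of 0.0272, and DESeq2 gave an adjusted p of 0.133. Leaving out 1 library at a time gave -0.46 to -0.29, the value nearest 0 being without PBS replicate 2.
Vegfb measured 224, 255, 338 and 324 CPM in Upy-PEG and 362, 368, 328 and 347 CPM in PBS. Upy-PEG replicates 1, 2 and 4 were below all PBS libraries, replicate 4 only narrowly, and replicate 3 was within their range. The log2 fold change was -0.30 ± 0.129 (95% interval -0.58 to -0.02; unadjusted p = 0.0356, adjusted p = 0.330, edgeR quasi-likelihood), and it was -0.21 on total counts alone (unadjusted p = 0.0679, edgeR), -0.20 without Upy-PEG replicate 1 and -0.09 without Upy-PEG replicates 1 and 2. These 2 libraries also had the lowest cardiomyocyte marker sums, at 59161 and 68042 CPM, against 82443 and 80558 CPM in Upy-PEG replicates 3 and 4, and the highest fibroblast marker sums, at 9141 and 8093 CPM, against 4954 and 6319 CPM.
Vegfa measured 266, 282, 362 and 286 CPM in Upy-PEG and 315, 372, 336 and 324 CPM in PBS, with 3 of the 4 Upy-PEG libraries below all PBS libraries and the fourth among them. Its log2 fold change was -0.17 ± 0.153 (95% interval -0.50 to 0.16; edgeR adjusted p = 0.709), and it was -0.08 on total counts alone, -0.27 without Upy-PEG replicate 3 and -0.06 without Upy-PEG replicates 1 and 2. Pgf measured 5.75, 6.64, 6.75 and 6.46 CPM in Upy-PEG and 6.03, 4.92, 4.75 and 6.45 CPM in PBS, with overlap. On the deposited RPKM the Pgf groups did not overlap, at 4.15 to 4.50 RPKM in Upy-PEG and 2.95 to 4.06 RPKM in PBS. The share of all genes separate on that scale was not counted. RPKM uses total counts, and 90.8% of all genes with an unadjusted p under 0.05 on it (limma-trend) were higher in Upy-PEG. From the counts the Pgf difference was 0.21 ± 0.152 on the log2 scale (adjusted p = 0.635, edgeR). The remaining 5 members had log2 fold changes between -0.11 (Nrp1) and 0.07 (Nrp2).
For Nrp1 the groups overlapped in this pair. The highest of all 12 libraries, PBS replicate 1 at 286 CPM, stood well above the other PBS values of 212, 233 and 214 CPM.

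**Figure D3:**
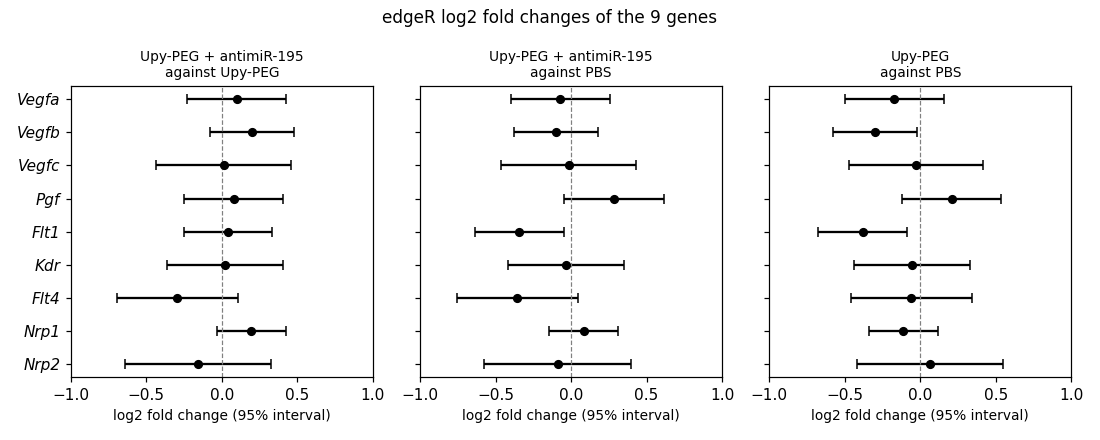
Log2 fold changes of the 9 genes with 95% intervals (horizontal axis) in the 3 comparisons, from edgeR's quasi-likelihood fit on all 12 libraries; a line marks 0. The intervals of Flt1 in both comparisons with PBS and of Vegfb in Upy-PEG against PBS lie below 0, and no member passed after adjustment over 14770 genes.

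AntimiR-195 in the hydrogel was also set against PBS; this comparison shares libraries with both of the others. None of the 9 members passed in edgeR's quasi-likelihood test after adjustment, beside 0% of all genes, DESeq2 called none beside 0.778%, and limma voom with sample weights none beside 0.00677%. At an unadjusted p under 0.05 there was 1 member, Flt1, lower, against 16.5% of all genes in either direction and 7.89% lower. The count was 0 to 3 members in the other fits, and it was 0 with the length slope or without antimiR-195 replicates 2 and 3. For 0 of 9 members were the groups separate, against 6.06% of all genes. The members' median log2 fold change was -0.07, beside 0.01 over all genes, with 7 of 9 below 0.
Flt1 measured 148, 100.5, 117 and 140.4 CPM in antimiR-195 and 133, 191, 171 and 147 CPM in PBS. AntimiR-195 replicates 2 and 3 lay below all PBS libraries and replicates 1 and 4 among them. Its log2 fold change was -0.34 ± 0.136 (95% interval -0.64 to -0.05; unadjusted p = 0.0252, adjusted p = 0.272, edgeR quasi-likelihood), but -0.15 without antimiR-195 replicates 2 and 3 and -0.13 with the length slope as a covariate. In Upy-PEG against PBS the Flt1 value was -0.38 under the first of these and -0.33 under the second.
Flt4 had a fold change of -0.36 ± 0.187 on the log2 scale (unadjusted p = 0.0792, adjusted p = 0.333, edgeR), and of -0.06 without antimiR-195 replicates 2 and 3. Pgf measured 6.87, 7.83, 7.04 and 5.30 CPM in antimiR-195 and 6.03, 4.92, 4.75 and 6.45 CPM in PBS. Replicate 4 of antimiR-195 lay inside the PBS range and the other 3 above it. Pgf had a log2 fold change of 0.29 ± 0.153 (95% interval -0.04 to 0.61; adjusted p = 0.340, edgeR), and 0.14 without antimiR-195 replicates 2 and 3.
Vegfa, the reported target, had a log2 fold change of -0.07 ± 0.153 (95% interval -0.40 to 0.25; edgeR adjusted p = 0.806), with values on both sides of the PBS range of 315 to 372 CPM. The sign was not stable: the value was 0.18 without antimiR-195 replicates 2 and 3. Kdr (-0.04 ± 0.179), Nrp2 (-0.09 ± 0.225), Vegfb (-0.10 ± 0.129), Vegfc (-0.02) and Nrp1 (0.08 ± 0.106) had edgeR adjusted p-values of 0.669 or more. The Nrp1 value was 0.19 without PBS replicate 1.
A single edgeR F test for any difference among the 3 groups gave the lowest p of the members to Flt1 (unadjusted p = 0.0248, adjusted p = 0.260), followed by Vegfb (adjusted p = 0.348). It called 0 of 9 members and 0% of all genes, and 1 member and 16.5% of genes had an unadjusted p under 0.05; DESeq2 and voom also called 0 of 9.

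The balance between members was taken as RPKM ratios within a library. The ratio of Flt1 to Kdr was 0.506 ± 0.0541 in antimiR-195, 0.500 ± 0.0979 in Upy-PEG and 0.621 ± 0.104 in PBS (SD, n = 4 each). Single libraries overlapped: PBS replicate 1 was at 0.471 and Upy-PEG replicate 4 at 0.643. The ratio of Pgf to Vegfa, ligands that compete for Flt1, was 0.0608 ± 0.0217 in antimiR-195, 0.0586 ± 0.00575 in Upy-PEG and 0.0450 ± 0.00923 in PBS, again with overlap. AntimiR-195 replicates 2 and 3, with the low length slopes, were at 0.0864 and 0.0694. Replicates 1 and 4 were at 0.0513 and 0.0363, inside the PBS range of 0.0359 to 0.0540.

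The level of endothelial markers was set beside the receptors. In whole ventricle fewer cells of a type and less RNA per cell cannot be told apart. The summed TMM-scaled level of the 18 endothelial markers was 2105 to 2392 CPM in antimiR-195, 1890 to 2038 CPM in Upy-PEG and 2115 to 2640 CPM in PBS, and no marker was at 0. Upy-PEG lay below both other groups without overlap on this scale. As a mean of log2 deviations, in which each marker counts alike, the groups overlapped, at -0.14 to 0.11 in antimiR-195, -0.10 to -0.06 in Upy-PEG and -0.04 to 0.25 in PBS. On total counts alone the sums overlapped, at 2047 to 2191 CPM in antimiR-195, 2000 to 2158 CPM in Upy-PEG and 2105 to 2678 CPM in PBS. In Upy-PEG against PBS 15 of 18 markers had log2 fold changes below 0 (12 of 18 on total counts alone), with a median of -0.16 (-0.06 on total counts) beside -0.38 for Flt1 and -0.05 for Kdr. None passed in edgeR and 4 had an unadjusted p under 0.05, beside 13.2% of all genes. For the marker lists that follow, that share was 16.5% in antimiR-195 against PBS and 13.1% in antimiR-195 against Upy-PEG. DESeq2 called Aqp1, and voom called Aqp1, Robo4, Ptprb and Sox18, of which Sox18 was higher in Upy-PEG. The lowest p-values were those of Aqp1, a water channel of microvessels (-0.65 ± 0.174, edgeR adjusted p = 0.117), the guidance receptor Robo4 (-0.34 ± 0.113, edgeR adjusted p = 0.191) and Tie1 (-0.29 ± 0.108, edgeR adjusted p = 0.245). The defining junction genes Pecam1 and Cdh5 had values of -0.02 ± 0.103 and -0.12 ± 0.187.
In antimiR-195 against PBS 12 of 18 endothelial markers were below 0, with a median of -0.10 and 6 with an unadjusted p under 0.05 in edgeR, 5 of them lower. The count was 15 of 18 without antimiR-195 replicates 2 and 3. In antimiR-195 against Upy-PEG 6 of 18 were below 0, with a median of 0.05 that turned to -0.11 on total counts alone, where 12 of 18 were below 0. For both comparisons edgeR, DESeq2 and voom called none of them. The part of endothelial content in the Flt1 values was not tested.
All 13 macrophage markers had log2 fold changes above 0 in Upy-PEG against PBS (median 0.67), led by Cd68 at 1.22 ± 0.193 (edgeR adjusted p = 0.0809). None passed in edgeR, 11 had an unadjusted p under 0.05, and DESeq2 called 7 and voom 9. Their summed level was 887 to 1761 CPM in antimiR-195, 1267 to 1840 CPM in Upy-PEG and 685 to 1050 CPM in PBS. All 10 cardiomyocyte markers were below 0 in Upy-PEG against PBS (median -0.30, 2 with an unadjusted p under 0.05, none called by edgeR, DESeq2 or voom), Myh6 by -0.42 ± 0.170, beside -0.30 for Vegfb and -0.17 for Vegfa, ligands that cardiomyocytes make. These 13 and 10 signs were the same on total counts alone and without Upy-PEG replicates 1 and 2, where the cardiomyocyte median was -0.12. Of the other lists in Upy-PEG against PBS, 9 of 10 fibroblast markers were above 0 (median 0.37, 7 with an unadjusted p under 0.05, of which 6 higher, none called by edgeR and 2 by DESeq2 and by voom). All 7 tested neutrophil markers were above 0 (median 0.72, 2 with an unadjusted p under 0.05, 1 called by DESeq2 and by voom), and 6 of 9 pericyte and smooth muscle markers were below 0 (median -0.12, and 0.001 on total counts alone).
In antimiR-195 against Upy-PEG 9 of 10 cardiomyocyte markers were above 0 (median 0.36, 5 with an unadjusted p under 0.05), and 7 of 10 on total counts alone or without Upy-PEG replicates 1 and 2, beside 0.20 for Vegfb and 0.10 for Vegfa. All 13 macrophage markers were below 0 (median -0.32, 6 with an unadjusted p under 0.05), as were 12 of 13 without Upy-PEG replicates 1 and 2. Fibroblast markers were below 0 for 7 of 10, neutrophil markers for 7 of 7, and pericyte and smooth muscle markers for 7 of 9 (4 of 9 without Upy-PEG replicates 1 and 2). Among these lists edgeR and voom called no marker in this comparison, and DESeq2 called 1, of the fibroblast list. In antimiR-195 against PBS 10 of 13 macrophage markers were above 0, with a median of 0.42, or 0.13 without antimiR-195 replicates 2 and 3. Of these markers 6 had an unadjusted p under 0.05 in edgeR there, and none was called by edgeR, DESeq2 or voom. The part of these cell types in the ligand values was not tested.
For the lymphatic receptor Flt4 and its partner Nrp2, the 8 lymphatic markers summed to 135 to 229 CPM in antimiR-195, 169 to 212 CPM in Upy-PEG and 174 to 240 CPM in PBS. In antimiR-195 against Upy-PEG 7 of 8 were below 0 (median -0.20, none with an unadjusted p under 0.05 in edgeR and none called by DESeq2 or voom), with the transcription factor gene Prox1 at -0.01 ± 0.179. AntimiR-195 replicates 2 and 3 had the lowest sums, at 135 and 160.1 CPM. Without them 4 of 8 markers were below 0 (median 0.015), as were 3 of 8 without Upy-PEG replicates 1 and 2. Their part in the Flt4 values was not tested.

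**Figure D4:**
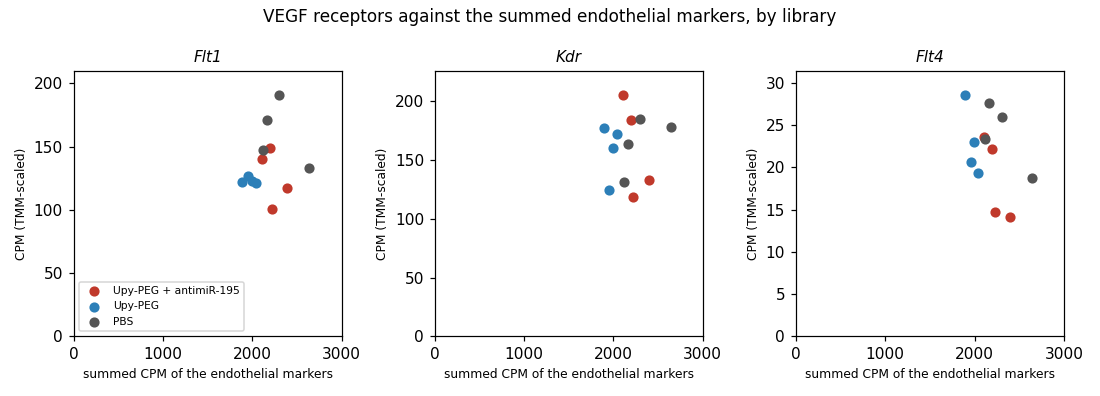
TMM-scaled CPM of Flt1, Kdr and Flt4 (vertical axis) against the summed CPM of 18 endothelial markers (horizontal axis) in the 12 libraries, coloured by group. The 4 Upy-PEG libraries lie at 1890 to 2038 CPM of markers, to the left of the other 8, and at 121 to 127 CPM of Flt1.

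Downstream of the receptors, 37 of 38 listed signalling genes were tested (phospholipase C gamma, protein kinase C, MAP kinase, PI3 kinase and Src branches, and the Flt4 ligand Vegfd). In antimiR-195 against Upy-PEG, antimiR-195 against PBS and Upy-PEG against PBS, in that order, 16, 14 and 16 lay above 0 (3, 9 and 24 on total counts alone). Of the 37 genes, 6, 9 and 5 had an unadjusted p under 0.05 in edgeR, beside 13.1%, 16.5% and 13.2% of all genes. None passed in edgeR. DESeq2 called Plcg1 and Cdc42 in antimiR-195 against PBS and Cdc42 in Upy-PEG against PBS, where voom called Cdc42, Plcg1 and the phosphatase gene Ptprb. Plcg1, the phospholipase that Kdr recruits, was at 63.1 ± 12.6 CPM in antimiR-195 and 90.4 ± 4.71 CPM in PBS (log2 fold change -0.52 ± 0.129, edgeR adjusted p = 0.253), without overlap, as for 6.06% of all genes. Src, a kinase of the permeability branch, was at 6.00 ± 0.571 CPM in antimiR-195 and 8.60 ± 0.762 CPM in Upy-PEG (-0.52 ± 0.127, edgeR adjusted p = 0.364), also without overlap, as for 4.4% of all genes. Genes of the lists were named by their low p, so separate groups add no weight. Cdc42, a small GTPase of endothelial migration, was at 239.8 ± 15.97 CPM in Upy-PEG and 192 ± 13.5 CPM in PBS (0.32 ± 0.1001, edgeR adjusted p = 0.159). Vegfd, which binds Flt4, had log2 fold changes of -0.27 ± 0.144, 0.03 ± 0.146 and 0.31 ± 0.144 in the same order of comparisons, none passing in edgeR.
Of 24 tested genes known to be induced by VEGF in endothelial cells, 7, 11 and 16 lay above 0 in that order (3, 11 and 18 on total counts alone, and 15, 11 and 9 without Upy-PEG replicates 1 and 2). In edgeR 1, 6 and 5 had an unadjusted p under 0.05, beside 13.1%, 16.5% and 13.2% of all genes, and none passed. DESeq2 called Rcan1 in antimiR-195 against PBS and Nr4a1 in Upy-PEG against PBS, where voom called Nr4a1, Lxn and the Notch ligand Dll4. Nr4a1, an early VEGF response gene that many other stimuli also induce, was at 16.8 ± 8.34 CPM in Upy-PEG and 37.3 ± 15.1 CPM in PBS (log2 fold change -1.15 ± 0.364, edgeR adjusted p = 0.171). In antimiR-195 against PBS, Rcan1, a calcineurin regulator, was at 118 ± 27.03 CPM in antimiR-195 and 70.8 ± 3.63 CPM in PBS (0.73 ± 0.178, edgeR adjusted p = 0.253), without overlap, as for 6.06% of all genes. Lxn was at 6.84 ± 1.46 CPM in Upy-PEG and 4.25 ± 0.823 CPM in PBS (0.69 ± 0.217, edgeR adjusted p = 0.171). In antimiR-195 against Upy-PEG the lowest p was that of the basement membrane gene Nid2 (-0.40 ± 0.137, edgeR adjusted p = 0.364).

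Vegfa and Flt1 are targets of the hypoxia-inducible factors, so 29 hypoxia and HIF genes were placed beside them. In antimiR-195 against Upy-PEG 12 of 29 lay above 0, in antimiR-195 against PBS 16 and in Upy-PEG against PBS 16, with medians of -0.03, 0.02 and 0.01; on total counts alone these were 6, 13 and 19 genes. None passed in edgeR, and 2, 5 and 3 had an unadjusted p under 0.05 in these comparisons, beside 13.1%, 16.5% and 13.2% of all genes. DESeq2 called Car9 and voom called Car9 and Epas1, both in Upy-PEG against PBS. Epas1, a HIF alpha subunit prominent in endothelium, was at 293 ± 67.6 CPM in antimiR-195, 299.9 ± 12.5 CPM in Upy-PEG and 418 ± 73.5 CPM in PBS. Its log2 fold change was -0.48 ± 0.167 in Upy-PEG against PBS (edgeR adjusted p = 0.216), where groups did not overlap, as for 9.68% of all genes. In antimiR-195 against PBS the Epas1 value was -0.51 ± 0.167 (edgeR adjusted p = 0.253). Car9, a carbonic anhydrase used as a hypoxia marker, was at 0.654 ± 0.232 CPM in Upy-PEG and 0.116 ± 0.0651 CPM in PBS (2.46 ± 0.490, edgeR adjusted p = 0.0971), a difference of few reads.
A list of class 3 semaphorins and plexins was set beside the neuropilins. Of its 12 tested genes, 5 lay above 0 and 7 below in each comparison, against 2, 4 and 8 above 0 on total counts alone. Their sum was lowest in antimiR-195 replicates 2 and 3, at 282 and 329 CPM, against 396 and 470 CPM in replicates 1 and 4, and without the lower pair 8 of 12 lay above 0 in antimiR-195 against Upy-PEG. None passed in edgeR, DESeq2 or voom. In the same order of comparisons 0, 2 and 3 had an unadjusted p under 0.05 in edgeR, beside 13.1%, 16.5% and 13.2% of all genes. Sema3g, an arterial semaphorin that binds Nrp2, was at 17.5 ± 2.38 CPM in antimiR-195, 18.6 ± 0.890 CPM in Upy-PEG and 22.8 ± 3.28 CPM in PBS. Plxnb1, a plexin, was at 46.3 ± 15.8 CPM in antimiR-195, 52.6 ± 4.01 CPM in Upy-PEG and 72.7 ± 13.3 CPM in PBS, with edgeR adjusted p-values of 0.253 against PBS for the first of these and 0.361 for the second.

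Genes with the most similar pattern over the 12 libraries were sought among 13045 genes with a mean of at least 1 CPM, by Pearson's r of log2 CPM. These r values are a description, and the libraries share group, depth and the gene length slope described above. Flt1 was most like Cobll1 (r = 0.975) and Abcc9, a potassium channel subunit that was placed on the pericyte and smooth muscle list (r = 0.970). Kdr was most like Rgs4 and Ehbp1 (r = 0.939 each), and Vegfa like Otud6b (r = 0.942) and Tppp (r = 0.935). Vegfb was most like Pdss2 (r = 0.987), an enzyme of coenzyme Q synthesis, and Rhot2 (r = 0.971), a protein of the outer mitochondrial membrane.
Flt4 was most like 4931406P16Rik (r = 0.987) and Lrrk2 (r = 0.985), and Nrp2 like Cflar (r = 0.978) and the laminin receptor subunit Itga6 (r = 0.969). Nrp1 was most like Sil1 (r = 0.919) and Sh3bp5 (r = 0.901), Pgf like Cmpk1 (r = 0.924) and Atp6v0d1 (r = 0.921), and Vegfc, with the fewest reads, like Taf6l (r = 0.874) and Gm3200 (r = 0.860).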

How the data were processed

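The submitters' processing notes name STAR, HTSeq, DESeq and the GRCm38 build; versions, annotation and strand setting are not given in the sources used here. Per the labels' protocols, libraries were made with a stranded polyA kit. The deposited counts are whole reads per gene, and the deposited RPKM is the authors' count scaled to library gene reads and gene length, with 1 length per gene recovered for 23961 genes. HTSeq's reads on no gene were 6.25% to 8.77% and ambiguous reads 0.664% to 0.898%, and both were left out. No replicate pair agreed within sampling noise (chi-square per degree of freedom at least 11.8). Symbols, loci and 3' untranslated regions came from GENCODE M21.

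Counts were tested with edgeR 4.0.16 (R 4.3.3): filterByExpr, TMM, group means over all 12 libraries, quasi-likelihood test with 9 residual degrees of freedom, Benjamini-Hochberg over 14770 genes, threshold 0.05. CPM are TMM-scaled, and SE is the log2 fold change over the square root of F. The pipeline was tested on simulated data. DESeq2 1.42.0 and limma 3.58.1 served as alternatives. Named genes are all members, the 3 of each list with the lowest p per comparison (given in part), defining markers and the 2 genes most like each member. The members and lists were chosen with earlier results of these data known. Replicate numbers follow the order of deposition.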

Additional observations from a re-analysis of the deposited data

How the results depend on the processing

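No paired analysis was possible because the labels give no replicate numbers that groups share. Of the 27 log2 fold changes of the members, 12 kept their sign under 12 other settings and 12 fits that left out 1 library, and 15 changed sign under at least 1. The setting with an adjusted p under 0.10 used the main fit, so no sign could change under it. Fits that left out a library of the third group kept every library compared. The setting without Upy-PEG replicates 1 and 2 was chosen after seeing the data. The counts of genes called changed more than the members did. For antimiR-195 against Upy-PEG DESeq2 called 16 genes. For antimiR-195 against PBS the count was 97 with DESeq2, 1 with limma voom and sample weights and 1 with no filter. For Upy-PEG against PBS it was 511 with DESeq2, 918 with voom, 69 with no filter, 172 with only the 8 libraries compared, 155 at an adjusted p under 0.10, 332 with the length slope as a covariate and 349 without antimiR-195 replicates 2 and 3. Leaving out 1 library gave 0 to 150 genes there, the highest without antimiR-195 replicate 2. The any-difference test called 525 genes with DESeq2, 427 with voom and 5 with no filter. Voom called 1 member, Flt1 in Upy-PEG against PBS.

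Members whose log2 fold change in antimiR-195 against Upy-PEG changed sign were these. On total counts alone Vegfa was -0.041, Vegfc -0.14, Pgf -0.074, Flt1 -0.11 and Kdr -0.13. On log2(RPKM + 0.1) Vegfa was -0.068, Vegfc -0.16, Pgf -0.081, Flt1 -0.13 and Kdr -0.16. Vegfc was -0.0049 with no filter. Under voom Vegfc was -0.12 and Pgf -0.0046. With the length slope Vegfc was -0.16, Pgf -0.093 and Nrp2 0.13, and without antimiR-195 replicates 2 and 3 they were -0.22, -0.074 and 0.19. Without Upy-PEG replicates 1 and 2 Vegfa was -0.022, Vegfb -0.024, Vegfc -0.026 and Nrp2 0.13. Leaving out 1 library gave -0.020 to 0.20 for Vegfa, -0.084 to 0.15 for Vegfc, -0.0091 to 0.18 for Pgf, -0.058 to 0.13 for Flt1, -0.12 to 0.13 for Kdr and -0.43 to 0.0096 for Nrp2.

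In antimiR-195 against PBS Vegfa was 0.0052 and Kdr 0.11 under voom. With the length slope Vegfa was 0.089, Kdr 0.19 and Nrp2 0.25, and without antimiR-195 replicates 2 and 3 they were 0.18, 0.25 and 0.26. Leaving out 1 library gave -0.19 to 0.034 for Vegfa, -0.16 to 0.13 for Vegfc, -0.18 to 0.085 for Kdr and -0.36 to 0.043 for Nrp2. In Upy-PEG against PBS total counts alone gave Vegfc 0.068, Kdr 0.055 and Flt4 0.055, and log2(RPKM + 0.1) gave Vegfc 0.10, Kdr 0.046 and Flt4 0.036. Flt4 was 0.0065 with the length slope and Nrp2 -0.051 under voom, and without Upy-PEG replicates 1 and 2 Vegfc was 0.00049 and Nrp2 -0.22. Leaving out 1 library gave -0.18 to 0.098 for Vegfc, -0.15 to 0.046 for Kdr, -0.18 to 0.027 for Flt4 and -0.096 to 0.16 for Nrp2. The cause of these changes was not tested.

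Scaling by total counts moved the median over all genes to -0.16 in antimiR-195 against Upy-PEG and to 0.07 in Upy-PEG against PBS. In Upy-PEG against PBS 91.7% of genes with an unadjusted p under 0.05 were then higher, against 70.9% with TMM; in antimiR-195 against Upy-PEG the share was 5.37% against 51.04%, and in antimiR-195 against PBS 33.9% against 52.3%. Pgf and Vegfc rest on the fewest reads. Of the 27 mean RPKM values, 22 moved by less than 1 SD with TMM-scaled library sizes. By Spearman's rho 1 of the 18 most similar genes stayed among the first 2.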
